A study of Homo sapiens with 12 samples.

Results

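The phagocyte NADPH oxidase was followed through 5 of its subunit genes, CYBB, CYBA, NCF1, NCF4 and RAC2, in U937 cells, an established human line of immature monocytic character that came from a histiocytic lymphoma. Members were all probe sets (groups of short probes for a transcript on the array) that the HG-U133 Plus 2.0 annotation pairs with these symbols. This gave 12 probe sets out of 54613 that were tested, 4 for CYBB and 2 for each of the other genes. On 1 of the NCF1 probe sets, 204961_s_at, the annotation also names NCF1B and NCF1C, near-identical copies of NCF1, so its signal cannot be assigned to NCF1 alone. The other, 214084_x_at, is annotated to NCF1, and cross-hybridization of the copies on it was not tested.

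The oxidase makes superoxide, which phagocytes release into the compartment that holds an engulfed microbe. Its catalytic core sits in the membrane as a heterodimer of CYBB (gp91phox, NOX2), which carries electrons from NADPH to oxygen, and CYBA (p22phox), which stabilizes CYBB and docks the cytosolic subunits. On activation, often through protein kinase C, the organizer NCF1 (p47phox) is phosphorylated and moves to the membrane with the other cytosolic subunits, among them NCF4 (p40phox), which binds a phosphoinositide of the phagosome. The small GTPase RAC2, in its GTP-bound form, joins them.

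The cells were stably transduced with a TRIPZ Tet-On cassette that produces a hairpin RNA against ZXDC when doxycycline is present. The 4 groups of 3 arrays were vehicle (0.1% DMSO), vehicle with doxycycline, PMA (100 nM) and PMA with doxycycline, and the labels call the arrays of a group biological replicates 1 to 3. Cultures with doxycycline received 0.5 µg/mL each day over 4 days, and PMA or vehicle was added after 2 of these days for 3 days of differentiation, durations as stated in the labels. PMA is a phorbol ester that activates protein kinase C and makes U937 cells differentiate in the direction of macrophages. All groups carry the cassette and were kept in puromycin. The arrays hold 1 hairpin and no doxycycline control without it, so the hairpin and the drug cannot be told apart. The labels do not state separate cultures beyond the word biological, so p-values measure the spread between these samples.

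The array values were log2 signals made by RMA (robust multi-array average). Array medians lay between 5.16 and 5.22, and arrays of 1 group correlated at 0.988 to 0.996. ZXDC, the target of the hairpin, lay between 7.51 and 8.01 (log2) on the 6 arrays without doxycycline and between 7.02 and 7.44 on the 6 with it (225964_at). The difference averaged over both agents was -0.50, with an exact permutation p of 0.005 (two-sided, within agents), the smallest it can give, and a limma adjusted p of 0.639 over all probe sets. Of 7 markers listed for the myeloid line 3 rose with PMA without doxycycline and 0 fell: ITGAM, the integrin subunit CD11b, by 4.81 (SE 0.23), CD14 by 2.21 and CSF1R by 1.99. LYZ, PTPRC (a marker of all leukocytes), FCGR1A and SPI1 did not pass the test. Mean signals of the 7 ran from 3.495 for FCGR1A to 12.32 for LYZ, a range that overlaps that of markers of other cell types. Their summed signal (log2) was 12.92 to 12.97 in vehicle, 12.55 to 12.95 in vehicle with doxycycline, 12.71 to 13.46 in PMA and 12.66 to 13.48 in PMA with doxycycline. The 8 markers of other cell types had mean signals of 2.88 to 7.30. Their summed signal was 8.55 to 8.75 (log2) in vehicle and PMA without doxycycline and 8.58 to 8.78 with it, and 1 of them, CD3D, was called in PMA against vehicle with doxycycline, by 0.39. RMA gives no detection call and no probe set a value of 0. The 4 arrays numbered 1 stood apart in 1 measure of RNA integrity, the signal of the 3' ACTB control minus that of the 5' control. It was 1.99 to 2.72 (log2) on them and 0.71 to 1.64 on the other 8. The same measure on the GAPDH controls did not set them apart, at 0.172 to 0.247 on them and 0.121 to 0.252 on the other 8.

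PMA raised the oxidase genes unequally. On their 2 brighter probe sets NCF1 rose about 20-fold and CYBB 8- to 9-fold, RAC2 about 3-fold and NCF4 1.5-fold. CYBA, already bright in vehicle, differed by less than the spread between arrays. Without doxycycline 8 of the 12 member probe sets were called higher and 0 lower, at an adjusted p under 0.05 from limma with Benjamini-Hochberg adjustment over all probe sets. In the same comparison 10.4% of all probe sets were called higher and 13.2% lower. The median difference of the 12 was 0.97 (log2), against 0.02 over all probe sets. In bulk samples, more cells that express a gene and more RNA per cell cannot be told apart.

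**Figure D1:**
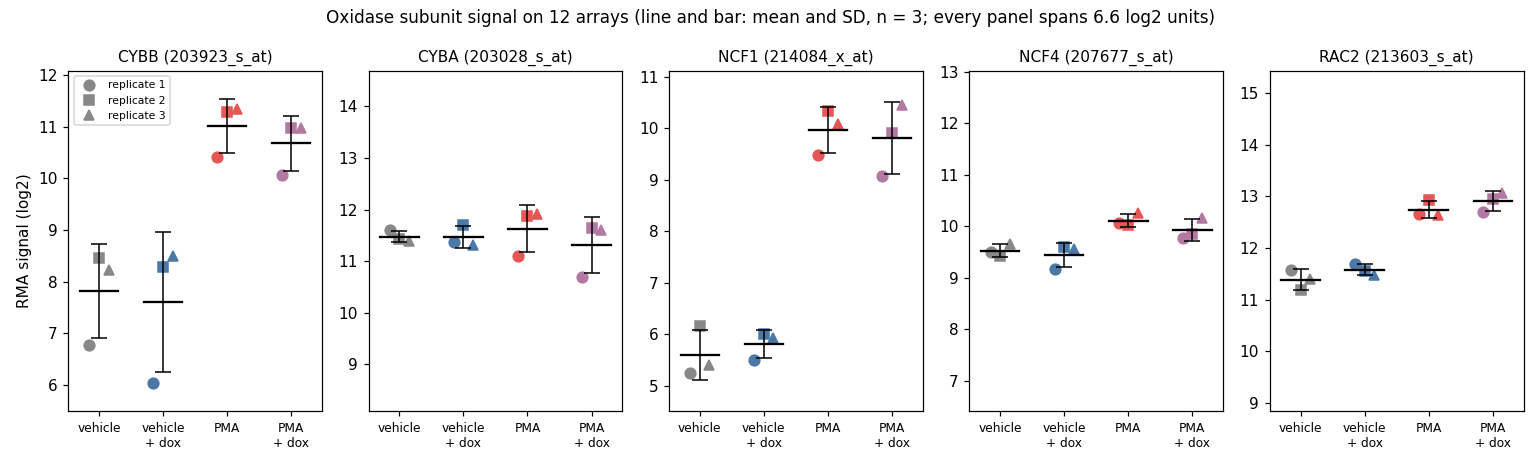
RMA signal (log2) of the brightest probe set of each oxidase gene on the 12 arrays. Columns are the groups, symbols the replicate numbers of the labels, lines and bars the mean and SD (n = 3), and all panels span the same number of log2 units; the 6 PMA arrays lie above the 6 vehicle arrays for CYBB, NCF1, NCF4 and RAC2. For CYBA the PMA arrays run from 10.69 to 11.91 and lie on both sides of the vehicle arrays, which span 11.31 to 11.70.

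CYBB, the catalytic subunit, was read by its brightest probe set, 203923_s_at. Its signal was 6.76, 8.46 and 8.22 (log2) on vehicle arrays 1 to 3 and 6.04, 8.28 and 8.49 in vehicle with doxycycline. On PMA arrays 1 to 3 it was 10.42, 11.29 and 11.34, and in PMA with doxycycline 10.07, 10.99 and 10.98. The lowest PMA array thus lay 1.58 above the highest vehicle array, and in every group the array numbered 1 was the lowest. The PMA difference without doxycycline was 3.20 (log2, SE 0.57, adjusted p = 0.000781), a fold of 9.21 (95% interval 3.93 to 21.6).

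The second CYBB probe set, 203922_s_at, moved by a similar amount with less spread. It went from 5.22 ± 0.47 in vehicle to 8.21 ± 0.45 in PMA (SD, n = 3), a difference of 2.99 (SE 0.27, adjusted p = 1.97e-06). Within each replicate number the difference was 3.02, 2.94 and 3.01, so the low values of number 1 cancelled within numbers. The remaining 2 CYBB probe sets, 233538_s_at and 217431_x_at, were dim, with a mean signal above 23.9% and 10.0% of all probe sets. They differed by 0.23 (SE 0.13) and 0.33 (SE 0.13), with adjusted p of 0.275 and 0.0963. The probe set 217431_x_at was called without PMA replicate 1 (0.49, adjusted p = 0.00801) and without all arrays numbered 1 (0.55, adjusted p = 0.00439). The mean of the 4 CYBB probe sets therefore gave a smaller PMA difference of 1.69, also called.

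CYBA, the partner of CYBB in the membrane, was already bright in vehicle-treated cells. On 203028_s_at, vehicle arrays 1 to 3 gave 11.60, 11.43 and 11.39 (log2), and PMA arrays 11.10, 11.88 and 11.91. PMA arrays 2 and 3 lay above all vehicle arrays and array 1 below them. The difference was 0.16 (SE 0.25, 95% interval -0.38 to 0.70) with an adjusted p of 0.75. On the arrays numbered 2 and 3 alone it was 0.49 with an adjusted p of 0.0247, so the call on CYBA depends on the arrays numbered 1, which had the higher ACTB 3' minus 5' signal. The part of RNA integrity in this was not tested. The second CYBA probe set, 229445_at, differed by -0.12 (SE 0.15, adjusted p = 0.647).

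NCF1, the organizer that is phosphorylated on activation, had the largest difference of the 5 genes. On 214084_x_at, vehicle arrays 1 to 3 gave 5.25, 6.16 and 5.42 (log2), and PMA arrays 9.48, 10.34 and 10.08. The groups were separated by 3.32. The difference was 4.36 (SE 0.32, adjusted p = 3.48e-07), a fold of 20.5 (95% interval 12.7 to 33.3), and 78 of the 54613 probe sets had a larger rise. The probe set shared with NCF1B and NCF1C went from 5.52 ± 0.26 to 10.01 ± 0.21 (SD, n = 3), a difference of 4.49 (SE 0.32, adjusted p = 2.18e-07). Both readouts gave about the same size, but neither tells how much of the rise belongs to the copies.

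NCF4, a cytosolic subunit that reads phagosomal lipid, rose slightly. On 207677_s_at, vehicle arrays 1 to 3 gave 9.50, 9.42 and 9.66 (log2), and PMA arrays 10.06, 10.02 and 10.25, so the groups did not overlap. The difference was 0.58 (SE 0.14, adjusted p = 0.00793), 1.5-fold, and it was 0.56, 0.59 and 0.60 within numbers 1 to 3. The second probe set, 205147_x_at, gave 0.57 (SE 0.14, adjusted p = 0.00797).

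RAC2, the GTPase of blood cells that switches the complex on, was bright in vehicle-treated cells and higher still with PMA. On 213603_s_at, vehicle arrays 1 to 3 gave 11.58, 11.18 and 11.40 (log2), and PMA arrays 12.66, 12.93 and 12.63. The difference was 1.36 (SE 0.14, adjusted p = 6.35e-06), a fold of 2.56 (95% interval 2.08 to 3.14). On 207419_s_at it was 1.63 (SE 0.26, adjusted p = 0.000309), with 1.00, 2.10 and 1.80 within numbers 1 to 3. Its close relative RAC1, present in most cells and able to serve the oxidase as well, did not pass the test: its brightest probe set, 208640_at, was 12.46 ± 0.06 in vehicle and 12.35 ± 0.12 in PMA, a difference of -0.11 (SE 0.11, adjusted p = 0.582). The other 3 RAC1 probe sets differed by -0.18 to -0.07, with adjusted p of 0.566 to 0.773.

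The same comparison with the hairpin induced gave similar sizes. Here 9 of 12 probe sets were called higher and 0 lower, with 10.7% of all probe sets called higher and 13.8% lower. The 6 PMA arrays with and without doxycycline all lay above the 6 vehicle arrays for 8 of the 12 members, and for 9.55% of all probe sets. NCF1 rose 16.0-fold (adjusted p = 6.88e-07) on 214084_x_at and by 4.47 on the log2 scale (SE 0.32, adjusted p = 1.89e-07) on the shared probe set. CYBB rose by 3.07 (SE 0.57, adjusted p = 0.00101) and RAC2 by 1.34 (SE 0.14, adjusted p = 6.40e-06) on their brightest probe sets. The dim CYBB probe sets were called here, by 0.58 and 0.42 (adjusted p = 0.00504 and 0.0354), but on the arrays numbered 2 and 3 alone their adjusted p was 0.0727 and 0.0695. The call on 217431_x_at was also lost without any single array of vehicle with doxycycline (replicates 1, 2 and 3) and without replicate 1 or 2 of PMA with doxycycline, with adjusted p of 0.0633 to 0.117. NCF4 rose by 0.48 (SE 0.14, adjusted p = 0.0236) on 207677_s_at and differed by 0.32 (adjusted p = 0.123) on 205147_x_at. That first call was lost without vehicle with doxycycline replicate 1 (adjusted p = 0.109) or PMA with doxycycline replicate 3 (adjusted p = 0.116), on the arrays numbered 2 and 3 alone (0.0564) and in a fit of these 2 groups only (0.0576). The second probe set was called with the replicate number as a block (adjusted p = 0.0419), after cyclic loess scaling (0.0266) and without PMA with doxycycline replicate 1 (0.0448). CYBA differed by -0.14 (SE 0.25, adjusted p = 0.768).

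**Figure D2:**
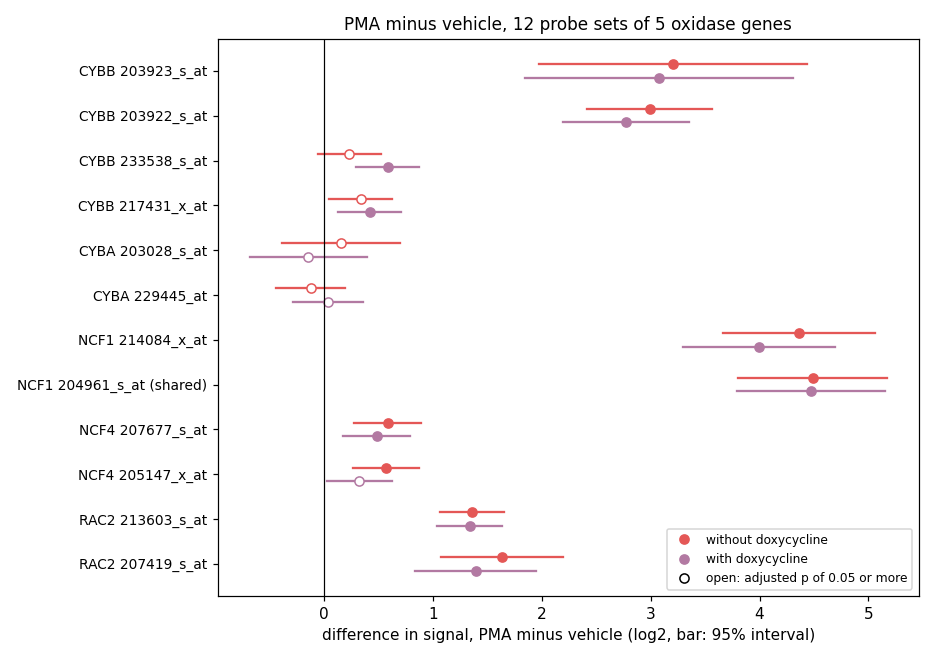
Difference in signal between PMA and vehicle (log2, horizontal axis) for the 12 probe sets, without and with doxycycline, with 95% intervals from limma; filled points have an adjusted p under 0.05. The NCF1 and CYBB probe sets lie farthest to the right, from 2.77 to 4.49 apart from the dim CYBB probe sets, and both CYBA probe sets straddle 0.

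The interaction, the PMA difference with doxycycline minus that without, was called for 0 of the 12 probe sets by limma, and for 0 of all 54613. No member had an unadjusted p under 0.05, against 2.83% of all probe sets. For the brightest probe sets it was -0.13 for CYBB (95% interval -1.87 to 1.61), -0.36 for NCF1 (-1.35 to 0.62) and -0.02 for RAC2 (-0.44 to 0.40). With same-numbered arrays with and without doxycycline as blocks the interval was -0.60 to 0.35 for CYBB, -0.88 to 0.15 for NCF1 and -0.38 to 0.34 for RAC2.

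Promoter sequences were available for 3 of the 5 genes, the pair with the largest PMA differences, CYBB and NCF1, and CYBA, which did not pass the test. They are shown so that these genes can be set side by side. Each is the 250 bases before the gene's RefSeq start (GRCh38.p14), written 5′ to 3′ on the strand of the gene. CYBB is at chrX:37779809-37780058 on the plus strand, NCF1 at chr7:74773761-74774010 on the plus strand and CYBA at chr16:88651054-88651303 on the minus strand. Capitals mark the core of the site of PU.1, the myeloid factor made by SPI1 (GAGGAA, or TTCCTC on the other strand), and the GC box (GGGCGG or CCGCCC).
CYBB: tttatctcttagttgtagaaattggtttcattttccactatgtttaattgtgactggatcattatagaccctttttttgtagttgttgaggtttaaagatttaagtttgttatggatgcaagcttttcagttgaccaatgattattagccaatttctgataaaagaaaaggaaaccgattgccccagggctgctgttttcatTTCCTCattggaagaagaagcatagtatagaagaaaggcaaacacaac
NCF1: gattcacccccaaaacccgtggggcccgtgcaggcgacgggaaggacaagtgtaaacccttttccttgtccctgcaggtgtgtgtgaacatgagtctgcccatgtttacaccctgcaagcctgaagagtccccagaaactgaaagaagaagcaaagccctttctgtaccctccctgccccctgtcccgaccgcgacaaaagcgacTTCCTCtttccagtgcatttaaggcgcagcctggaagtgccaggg
CYBA: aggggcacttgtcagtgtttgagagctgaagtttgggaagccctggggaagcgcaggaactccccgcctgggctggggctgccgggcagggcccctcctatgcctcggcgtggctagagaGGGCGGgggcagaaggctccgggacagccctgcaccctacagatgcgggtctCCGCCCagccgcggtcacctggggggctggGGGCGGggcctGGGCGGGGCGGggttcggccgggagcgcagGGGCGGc

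The CYBB and NCF1 windows each held 1 match to the PU.1 core, in reverse orientation, 48 to 43 bases before the start in CYBB and 45 to 40 bases before it in NCF1. The CYBA window held 0. Of 35116 RefSeq promoters of the same length 23.6% hold such a match. CYBA held 6 matches to the GC box, of which 2 overlap, and the others 0, a motif found in 42.6% of promoters. A spaced pair of interferon regulatory factor elements, GAAA, any 2 bases, GAAA on either strand, was found 2 times in CYBB and 1 time in NCF1, and in 3.02% of promoters. CYBB also held 4 CCAAT boxes (CCAAT on either strand, in 32.0% of promoters), 1 of them next to the PU.1 core. No window held the AP-1 site TGANTCA (6.57% of promoters) or TATAAA (10.7%). A match is a description of letters and does not show that a factor binds there.

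Genes around the oxidase moved in both directions with PMA. Each was read by its brightest probe set, on which 11.9% of all 19775 genes were called higher and 17.8% lower without doxycycline, with a median of 0.01, and 12.3% and 18.6% with it. Among 17 partner and assembly genes 3 rose and 6 fell, with a median of -0.24. The rises were PRKCB, a protein kinase C isoform that phosphorylates NCF1 (0.91, SE 0.11, adjusted p = 3.71e-05), HVCN1, the proton channel that balances the charge the oxidase moves (0.60, SE 0.17, adjusted p = 0.0193), and RAP1A, a small GTPase found with the flavocytochrome (0.43). The largest falls were those of PLA2G4A, cytosolic phospholipase A2, which releases arachidonic acid (-1.92, SE 0.12), and PIK3CG, a phosphoinositide 3-kinase of myeloid cells (-1.73, SE 0.12). Of the 5 Rac exchange factors measured 3 fell, VAV1, VAV3 and PREX1, by 0.49, 0.55 and 0.50, while DOCK2 differed by -0.08 (adjusted p = 0.695) and TIAM1 by 0.09 (adjusted p = 0.765). ARHGDIB, which holds Rac proteins inactive in the cytosol, fell by 1.08. CYBC1, a chaperone of CYBB and CYBA, differed by -0.24 (SE 0.23, adjusted p = 0.543). The call of HVCN1 was lost without vehicle replicate 2, vehicle replicate 3 or PMA replicate 1, with adjusted p of 0.0685 to 0.0805. With doxycycline 2 of the 17 rose and 7 fell, and HVCN1 was not called (0.42, adjusted p = 0.0987).

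No gene of the other NADPH oxidases was called. The 9 measured, among them NOX1, NOX4, NOX5 and the dual oxidases DUOX1 and DUOX2, differed by -0.20 to 0.33 (median 0.02), 2 of them with an unadjusted p under 0.05, and with doxycycline 0 of 9 were called either. Their mean signals lay between 3.17 and 6.69.

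Of 7 genes that supply NADPH, 2 rose and 0 fell, with a median of 0.14. PGD, 6-phosphogluconate dehydrogenase of the pentose phosphate pathway, rose by 1.28 (SE 0.32, adjusted p = 0.0087), and H6PD, its counterpart in the endoplasmic reticulum, by 0.42 (SE 0.12, adjusted p = 0.021). Without vehicle replicate 2, PMA replicate 2 or PMA replicate 3 the count was 1, since H6PD was lost (adjusted p = 0.0852, 0.0766 and 0.0629). With doxycycline 0 of 7 were called, and PGD differed by 0.90 (adjusted p = 0.0562).

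Genes that handle superoxide and peroxide split, with 4 of 13 higher and 4 lower and a median of 0.04. CAT, catalase, fell by 1.34 (SE 0.20, adjusted p = 0.000228), and SOD1, the cytosolic superoxide dismutase, by 0.72 (SE 0.11, adjusted p = 0.000272). The 4 peroxiredoxins measured were split: PRDX2 and PRDX3 fell by 0.53 and 0.59, PRDX1 rose by 0.34 (adjusted p = 0.0342), and PRDX6 differed by -0.11 (adjusted p = 0.564). TXNRD1, thioredoxin reductase, rose by 0.68 (SE 0.21, adjusted p = 0.0286) and GPX4, which reduces lipid peroxides, by 0.50 (SE 0.10, adjusted p = 0.00139). Without vehicle replicate 1, vehicle replicate 3 or PMA replicate 3 the count called was 5 rather than 8, and the call of TXNRD1 was lost in these and without PMA replicate 2, with adjusted p of 0.0607 to 0.125. With doxycycline 2 rose and 4 fell.

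Among 8 transcription factors known to act on oxidase promoters 3 rose and 2 fell, with a median of 0.09. CEBPB, a C/EBP factor of activated macrophages, rose by 1.80 (SE 0.11, adjusted p = 5.83e-08) and IRF1, an interferon regulatory factor, by 0.53 (SE 0.13, adjusted p = 0.00697). IRF8, which is known to act with PU.1 on CYBB, fell by 1.06 (SE 0.15, adjusted p = 0.000124), and ELF1, an ETS factor, by 0.52 (SE 0.12, adjusted p = 0.00559). SPI1 itself was 5.25 ± 0.13 in vehicle and 5.55 ± 0.20 in PMA (SD, n = 3), a difference of 0.30 (SE 0.14) with an adjusted p of 0.156. Of the housekeeping genes, ACTB differed by -0.28 (SE 0.20, adjusted p = 0.401) and GAPDH by 0.05 (SE 0.10, adjusted p = 0.819). With doxycycline 2 of the 8 factors rose and 2 fell.

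**Figure D3:**
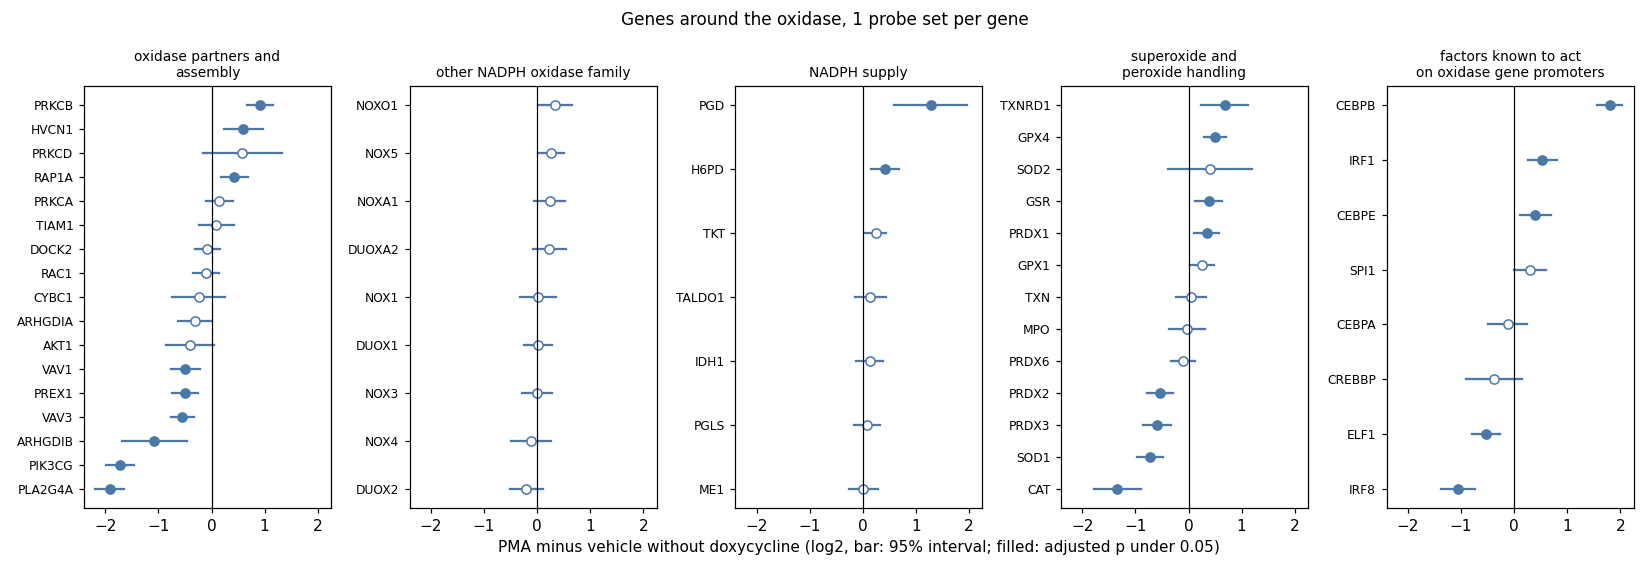
Difference between PMA and vehicle without doxycycline (log2, horizontal axes) for each gene of 5 lists, read by its brightest probe set, with 95% intervals from limma; filled points have an adjusted p under 0.05. Partner genes span -1.92 to 0.91, the other oxidases stay between -0.20 and 0.33, and the factor list runs from IRF8 at -1.06 to CEBPB at 1.80.

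The next question was whether induction of the ZXDC hairpin changed the oxidase genes. No member was called in either agent. In PMA-treated cells the 12 probe sets differed by -0.34 to 0.21 with doxycycline (median -0.17), 0 of them with an unadjusted p under 0.05, and limma called 0% of all probe sets and gave an unadjusted p under 0.05 for 5.93%. In vehicle-treated cells they differed by -0.21 to 0.21 (median -0.03), again with 0 called and 0 under an unadjusted 0.05, against 0% and 2.84% of all probe sets.

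The precision differed between genes. For CYBB on 203923_s_at the difference in PMA was -0.34 with a 95% interval of -1.57 to 0.89, wide enough to hold a fall to 33.7% of the signal. For NCF1 it was -0.16 (-0.85 to 0.54), for CYBA -0.31 (-0.85 to 0.23), for NCF4 -0.18 (-0.49 to 0.13) and for RAC2 0.17 (-0.12 to 0.47). The interval of each of the 5 genes includes 0, which does not show that doxycycline left them unchanged.

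**Figure D4:**
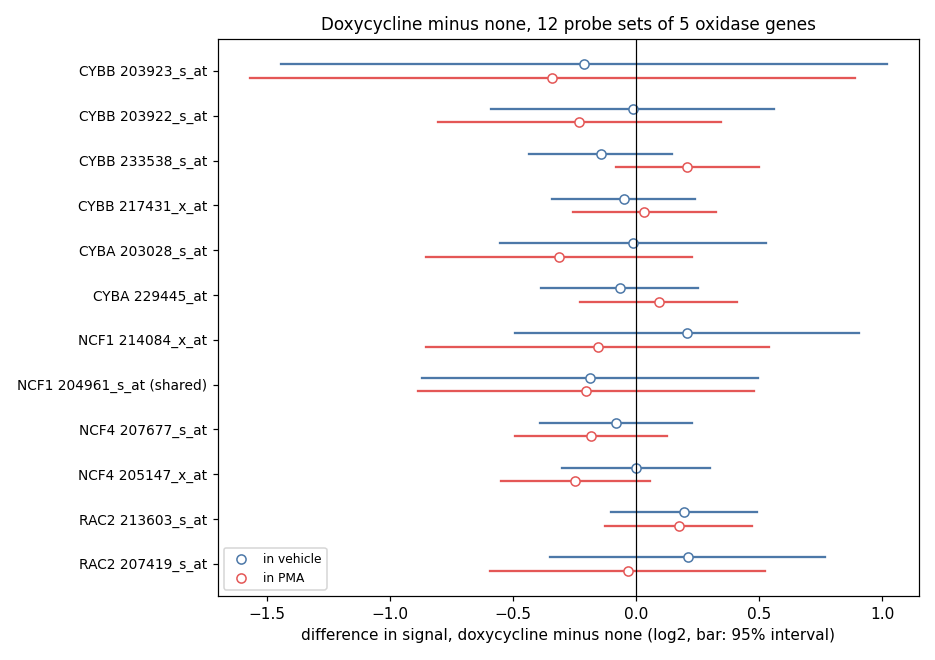
Difference in signal between cultures with and without doxycycline (log2, horizontal axis) for the 12 probe sets, in vehicle and in PMA, with 95% intervals from limma. All points are open, since no adjusted p was under 0.05, and all intervals include 0; the widest are those of CYBB 203923_s_at.

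By replicate number, arrays with and without doxycycline of the same agent deviated together, so the 6 pairs were also used as blocks. With these blocks 0 of 12 member probe sets were called in PMA, while 79 of all probe sets, 0.145%, were. The CYBB difference in PMA was then -0.34 with a narrower 95% interval of -0.68 to -0.00 (unadjusted p = 0.0482, adjusted p = 0.432), and that of CYBA -0.31 (-0.57 to -0.06, unadjusted p = 0.0203, adjusted p = 0.325). In the 3 PMA pairs the CYBB difference was -0.35, -0.31 and -0.36, and that of CYBA -0.41, -0.24 and -0.30. For the other CYBB probe sets it was -0.09, -0.21 and -0.39 on 203922_s_at, but 0.45, 0.13 and 0.04 on 233538_s_at and 0.48, -0.15 and -0.23 on 217431_x_at. For CYBA on 229445_at it was 0.39, -0.17 and 0.06. Of all probe sets 11.4% had an unadjusted p under 0.05 in this fit, and 2 of 12 members did. RAC2 on 213603_s_at was higher with doxycycline in 6 of 6 pairs, by 0.18 averaged over both agents (unadjusted p = 0.0489, adjusted p = 0.45 with pairs as blocks), but its other probe set, 207419_s_at, was higher in 2 of 6. In the PMA pairs the ACTB 3' minus 5' signal was also higher with doxycycline, at 2.72 against 2.39, 1.32 against 1.12 and 1.64 against 1.01, and its part in these differences was not tested.

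The arrays numbered 1 set most of the spread in CYBB. On 203923_s_at they differed from the mean of the other 2 arrays of their group by -2.35 to -0.90, on 203922_s_at by -0.81 to -0.55, and on NCF1 214084_x_at by -1.11 to -0.48, the lowest array in 4 of 4 groups for each. For RAC2 213603_s_at they were the lowest in 1 of 4 groups. Without doxycycline the PMA difference of CYBB was larger within number 1, at 3.65, than within numbers 2 and 3, at 2.83 and 3.13. That of NCF1 was 4.23 within number 1 and 4.18 and 4.67 within the others. With doxycycline the differences were less alike. For CYBB they were 4.03 within number 1 against 2.70 and 2.49, and for NCF1 3.57 against 3.89 and 4.52. Leaving out single arrays moved the CYBB difference with doxycycline between 2.29 and 3.52. With the replicate number as a block over all groups the SE of the CYBB difference fell from 0.57 to 0.25 and the call was kept.

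**Figure D5:**
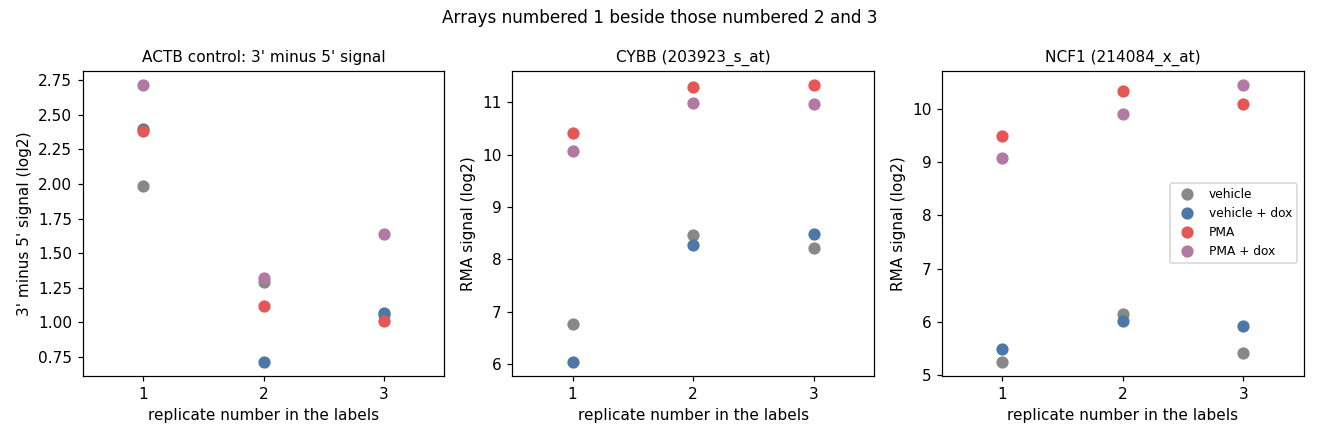
The ACTB control's 3' minus 5' signal and the CYBB and NCF1 signals (log2, vertical axes) by the replicate number of the labels, with groups in colour. Arrays numbered 1 have the highest ACTB ratio, 1.99 to 2.72, and the lowest CYBB and NCF1 signal of their group.

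Likeness between genes was described by the root mean square difference of values centred on each gene's mean over the 12 arrays, with 1 probe set per gene. Since PMA separates the arrays, it mostly ranks genes by how PMA moved them. This does not hold for CYBA, whose PMA difference did not pass the test. Its lowest signals were those of the arrays numbered 1 of PMA (11.10) and PMA with doxycycline (10.69). CYBB was most like S100A9, a calcium-binding protein of myeloid cells (0.32, against a median of 1.75 over all genes), followed by CD36, a scavenger receptor, and CCL20, a chemokine (0.48 each). NCF1 was most like CDKN1A, a cell cycle inhibitor (0.27, median 2.13), FAP and NRP1 (both 0.32). RAC2 was most like BMF, SH3BP2 and IL4R (0.10 each, median 0.71), and NCF4 like SASH3 (0.08), ARID5A and MAP2K2 (both 0.11, median 0.37). CYBA was most like ESYT1 (0.10), STING1 and GMPR (both 0.11, median 0.39). When the 6 vehicle arrays or the 6 PMA arrays were used alone, the 3 nearest genes of each member were others.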

How the data were processed

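RNA of 12 U937 samples (100 ng each) was amplified by in vitro transcription from the 3' end and hybridized to Affymetrix HG-U133 Plus 2.0 arrays, per the labels' protocols. Per the submitters' processing notes, the authors ran RMA, which yields log2 signals. Its version and chip definition are not given in the sources. RMA summarizes probes and equalizes the distribution of arrays. Bright and dim signals are compressed on such arrays.

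The values were used without further scaling. Of 54675 probe sets 62 controls were left out, with no filter on dim signals. The array annotation gives a single symbol for 41091 of the rest, more than 1 for 1801 and no symbol for 11721. Symbols were updated through Entrez numbers. The 4 group means entered a single linear model of limma 3.58.1 with moderated variances (R 4.3.3; 8 residual and 5.6 prior degrees of freedom), two-sided, with Benjamini-Hochberg adjustment over 54613 probe sets and calls at an adjusted p under 0.05. The fit was tested on simulated data with independent noise on each array, which does not cover the correlation of same-numbered arrays.

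Members and lists were chosen with earlier results of these data known. The text names all member probe sets. The brightest probe set of a gene is that of highest mean among those annotated to it alone. Of each other list up to 2 rises and 2 falls, by size, are named among called genes whose groups do not overlap, with RAC1, CYBC1, SPI1, ZXDC, ACTB and GAPDH always, and per member the 3 genes most like it; RAP1A, VAV1, VAV3, PREX1, ARHGDIB, DOCK2, TIAM1, PRDX1, PRDX2, PRDX3, PRDX6 and the examples of other oxidases were added after their values were seen, as was CD3D. Lists were given as counts and medians. Genes without a single-gene probe set in the annotation are not analysed here.

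To check pairing, deviations from group means were correlated. Same-numbered vehicle arrays gave 0.53, 0.22 and 0.31 across doxycycline, and PMA arrays 0.56, 0.22 and 0.31, so these were treated as pairs. Across agents it was -0.01 to 0.21 without doxycycline and 0.09 to 0.24 with it. Motifs were searched on both strands of RefSeq promoters (GRCh38.p14). Alternatives were blocks, leaving out arrays, other scalings, a filter on dim probe sets, gene-level summaries and other eBayes settings. With 3 arrays per group their number limits the precision.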

Additional observations from a re-analysis of the deposited data

How the results depend on the processing

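In the PMA comparisons the calls on CYBB (203923_s_at, 203922_s_at), NCF1 and RAC2 (both probe sets of each) held under every alternative run that tested them. When replicate arrays were left out in turn, 8 to 9 member probe sets were called without doxycycline and 7 to 9 with it; per gene (highest probe set, or mean of probe sets) it was 4 of 5 in both comparisons. Counts over all features were 6260 and 6426 of 19775 genes by the highest probe set, and 6137 and 6249 by the mean, which tests fewer features. For doxycycline in PMA, all probe sets called numbered 4 with the replicate block, 79 with the replicate block of 6 pairs, 5 on arrays numbered 2 and 3, 1 by the highest probe set per gene, 1 with eBayes trend and robust settings, and 0 to 1 when arrays were left out; none was a member. For both agents averaged it was 1 with the replicate block and 1 on arrays numbered 2 and 3, and for the interaction 1 with the 6 pairs and 0 to 1 with arrays left out. The block changed no other member call than that of NCF4 205147_x_at.

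Signs that turned belong to uncalled values. On arrays numbered 2 and 3, CYBA with doxycycline gave PMA differences of 0.12 (203028_s_at) and -0.21 (229445_at), and doxycycline differences in vehicle were 0.10 for CYBA, 0.046 for CYBB and 0.039 for NCF4. The doxycycline difference in vehicle was 0.0052 for CYBA after cyclic loess, the interaction was 0.00092 for RAC2 after median subtraction and 0.023 for CYBB by the mean of probe sets. Leaving out arrays gave PMA differences with doxycycline of -0.31 to 0.17 and -0.12 to 0.16 for the CYBA probe sets, doxycycline differences in vehicle of -0.14 to 0.060 for CYBA, -0.74 to 0.57 for CYBB and -0.16 to 0.051 for NCF4, in PMA of -0.48 to 0.21 for NCF1, averaged of -0.54 to 0.12 for CYBB and -0.13 to 0.21 for NCF1, and interactions of -0.57 to 0.010 for CYBA, -0.91 to 0.40 for CYBB, -0.68 to 0.0059 for NCF1 and -0.12 to 0.083 for RAC2. The cause was not tested. RMA gives no background signal, so how far the dim CYBB probe sets lie above it is unknown.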

Other observations

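Within the 6 vehicle arrays alone, where CYBB on 203923_s_at ranged from 6.04 to 8.49 (log2), the gene most like it by centred root mean square difference was CCL2, a monocyte-attracting chemokine, at 0.16, against a median of 0.97 over all genes and an SD of 1.04 for CYBB itself. S100A8, a calcium-binding protein of myeloid cells, followed at 0.27. The spread of CYBB in these arrays lies between the arrays numbered 1 and the others, so the likeness rests on the same 2 low arrays, and the values were chosen after they were seen. Within the 6 PMA arrays the gene second nearest to CYBB and the gene nearest to CYBA were both MYD88, an adaptor of Toll-like receptors, at 0.04 for each. Here too the arrays numbered 1 were low. Against the mean of the other arrays of their group they differed by -0.90 (PMA) and -0.91 (PMA with doxycycline) for CYBB. For CYBA on 203028_s_at these differences were -0.80 and -0.93. The likeness of both genes to MYD88 thus rests on these 2 low arrays as well.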
